A study of Mus musculus with 8 samples.

Results

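The genes described here are 32 genes of the unfolded protein response and the ATF4 response, chosen by name and matched by symbol to the Ensembl identifiers of the deposited count table, which held 16341 genes. All 32 were counted, and they fell into 3 sets fixed by role. The endoplasmic reticulum (ER) chaperone arm held 14 genes of protein folding and degradation in the ER, the ATF4 arm held Atf4 and 13 genes known as its targets or partners, and the remaining 4 were the stress sensors Ern1, Atf6 and Eif2ak3 with the transcription factor Xbp1. The groups were 4T1 cells positive (4T1-Sca1+) or negative (4T1-Sca1-) for the surface protein SCA1, the product of Ly6a, each measured in 4 RNA-seq libraries. 4T1 is a mouse mammary carcinoma line. Both groups came from unmodified parental 4T1 according to the source label, while the extraction protocol names stained 4T1 tumor separated on magnetic columns, and both groups carried a CD45- gate. No treatment, time or animal age was given for either group, and the labels do not say whether replicates were separate sorts, so p-values measure the spread between these libraries, which may be technical.

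When unfolded proteins build up in the ER, the sensors IRE1 (Ern1), ATF6 and PERK (Eif2ak3) are released from the chaperone BiP (Hspa5). IRE1 splices Xbp1 mRNA into the form that encodes an active transcription factor, ATF6 is cut to free another, and both turn on ER chaperones and the genes that clear misfolded proteins. PERK phosphorylates the translation factor eIF2, which slows protein synthesis but favors translation of Atf4, and so do the kinases that sense amino acid shortage, heme shortage or viral RNA, so that ATF4 targets can also be induced without stress in the ER. Gene-level counts measure the amount of each mRNA. They show neither the splicing of Xbp1 nor the translation of Atf4.

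Depth was 15041995 to 16968215 counts per library for 4T1-Sca1+ and 13561804 to 16142836 for 4T1-Sca1-. Ly6a lay between 145 and 193 normalized counts in the 4T1-Sca1+ libraries and between 0 and 4.11 in the 4T1-Sca1- libraries. Of 8 epithelial markers tested, 2 were higher and 5 lower, with a summed normalized count of 53590.0 to 58131 in 4T1-Sca1+ and 53997 to 58029 in 4T1-Sca1-, led by Krt7 (means of 17103 and 19845), while Krt5 was at or near 0. The leukocyte marker list had 4 of its 14 genes tested, all 4 higher in 4T1-Sca1+. They were Cd68 (means of 236 and 152), Cd74 (125 and 65.5), Csf1r (39.8 and 17.8) and S100a8 (38.5 and 7.52). The summed normalized count of this list was 408 to 476 against 228 to 271. Ptprc, the defining leukocyte gene, had means of 2.32 and 0.53. The fibroblast list had 2 of 3 tested genes higher and summed to 637 to 674 against 395 to 468, most of it from Pdgfra (560 and 364) and Col1a1 (47.6 and 28.6). Postn, also tested, did not pass (24.7 and 24.2). Of its low-count genes, Dcn (11.4 and 1.06), Pdgfrb (6.19 and 0.26) and Acta2 (2.58 and 0) had the higher means in 4T1-Sca1+. Fap (0.96 and 2.96) went the other way, and Col1a2 had means of 4.43 and 4.61. The endothelial list had 1 gene tested, Tie1, which was lower, and summed to at most 66.2 in any library. Over all genes tested, 31.3% were higher and 30.2% lower. The part of other cell types in the results below was not tested. In bulk libraries, fewer cells of a type and less RNA per cell cannot be told apart.

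The regulatory sequences known for the 2 arms are short. They were sought in RefSeq promoters of GRCm38.p6, from 250 bases before to 50 bases after each start. At least 1 such promoter was at hand for 29 of the 32 genes (all but Atf6, Hyou1 and Manf). Each sequence was searched on both strands. Counts for the arms are of genes, with an element in any promoter of the gene. Counts over all promoters are of single promoter entries. The ER stress response element (ERSE), read by ATF6 and XBP1 with NF-Y, was taken as CCAAT and CCACG with 9 bases between them. It was in 6 of 12 chaperone arm promoters and 0 of 14 ATF4 arm promoters, and in 39 of all 32851 promoters (0.119%). The 7 sites of these 6 genes are printed because no ATF4 arm promoter held this element, though not every chaperone arm gene did. They are given 5′ to 3′ on the gene's own strand with the element in capitals, so that an element on the other strand reads CGTGG to ATTGG.
Hspa5, chr2:34772013-34772055 (+): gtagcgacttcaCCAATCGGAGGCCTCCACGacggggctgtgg
Hsp90b1, distal, chr10:86705626-86705668 (-): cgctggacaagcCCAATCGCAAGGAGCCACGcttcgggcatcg
Hsp90b1, proximal, chr10:86705521-86705563 (-): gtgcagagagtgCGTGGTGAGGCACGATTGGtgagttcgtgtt
Calr, chr8:84847063-84847105 (-): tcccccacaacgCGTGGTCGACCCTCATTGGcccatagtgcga
Dnajc3, chr14:118937815-118937857 (+): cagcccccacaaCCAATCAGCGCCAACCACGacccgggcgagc
Creld2, chr15:88819508-88819550 (+): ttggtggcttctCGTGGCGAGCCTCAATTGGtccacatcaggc
Pdia6, chr12:17266479-17266521 (+): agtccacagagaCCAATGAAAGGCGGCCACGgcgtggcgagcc

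The elements began between 65 bases (Hspa5) and 212 bases (Hsp90b1, distal) before the start. ERSE-II, in which ATTGG and CCACG are 1 base apart, was in 12 of all promoters (0.0365%) and in 2 of 12 of the chaperone arm, Herpud1 and Dnajb11. The C/EBP-ATF response element (CARE), which ATF4 binds with a C/EBP partner, was taken as TGATG and AA with 1 base between them. It was in 4 of 14 ATF4 arm promoters (Asns, Chac1, Trib3 and Vldlr), in 1 of 12 chaperone arm promoters (Herpud1) and in 1304 of all promoters (3.97%). The sites of Asns and Chac1 are printed as examples from the ATF4 arm, and Herpud1 is shown because it held an element of each kind.
Asns CARE, chr6:7693213-7693244 (-): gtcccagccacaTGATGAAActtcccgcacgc
Chac1 CARE, other strand, chr2:119351037-119351068 (+): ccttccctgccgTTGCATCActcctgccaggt
Herpud1 CARE, other strand, chr8:94386305-94386336 (+): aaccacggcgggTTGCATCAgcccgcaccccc
Herpud1 ERSE-II, chr8:94386365-94386399 (+): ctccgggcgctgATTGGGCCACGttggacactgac

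The UPR element TGACGTG, bound by XBP1, was in the promoter of Hspa5 alone among these genes and in 661 of all promoters (2.01%). A match of letters is a description of the sequence and does not show that a factor binds there. None of Ern1, Eif2ak3 and Xbp1 held any of the 4 motifs in this window.

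The medians of the 2 arms lay on opposite sides of 0. Of 14 chaperone arm genes, 9 were higher in 4T1-Sca1+ cells, 0 were lower and 5 did not pass the test, with a median log2 fold change (4T1-Sca1+ over 4T1-Sca1-) of 0.21. Of the 13 ATF4 arm genes tested, 9 were lower, 3 were higher and 1 did not pass, with a median of -0.27. Vldlr, the 14th, a lipoprotein receptor, had at most 3 counts in any library and was not tested. The ATF4 arm was not uniform. Its 6 enzymes of serine, one-carbon and asparagine metabolism were all lower, with a median of -0.36. Its 7 other tested genes had 3 higher and 3 lower, with a median of 0.14. This split of the arm was not one of the 3 sets and was made with earlier results of these data known. Over all 11717 genes tested, 31.3% were called higher and 30.2% lower, with a median of 0.0074. The shares of 9 of 14 and 9 of 13 were larger, but the genes were chosen with earlier results of these data known. A larger share than in all genes is therefore no test of the arms. Calls are at an adjusted p under 0.05 in edgeR's quasi-likelihood test, adjusted over all genes tested.

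All differences were below 2-fold, from a log2 fold change of -0.62 (Ppp1r15a) to 0.83 (Ddit4). In 8 chaperone arm genes every 4T1-Sca1+ library lay above every 4T1-Sca1- library, and in 9 ATF4 arm genes every 4T1-Sca1+ library lay below, against 26.8% and 27.9% of all genes tested in these directions. Over 18 alternative fits of all genes, 7 chaperone arm genes (Sdf2l1, Herpud1, Edem1, Pdia4, Pdia6, Creld2, Manf) and 9 ATF4 arm genes (Ddit3, Asns, Psat1, Phgdh, Psph, Shmt2, Mthfd2, Ddit4, Ppp1r15a) were called in the same direction in every fit. Of these ATF4 arm genes, Ddit4 was higher and the rest were lower. Atf4, also called lower, kept its call in 14 of the 18. The share of all genes tested that kept a call in every fit was not computed, so these counts have no background beside them.

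**Figure D1:**
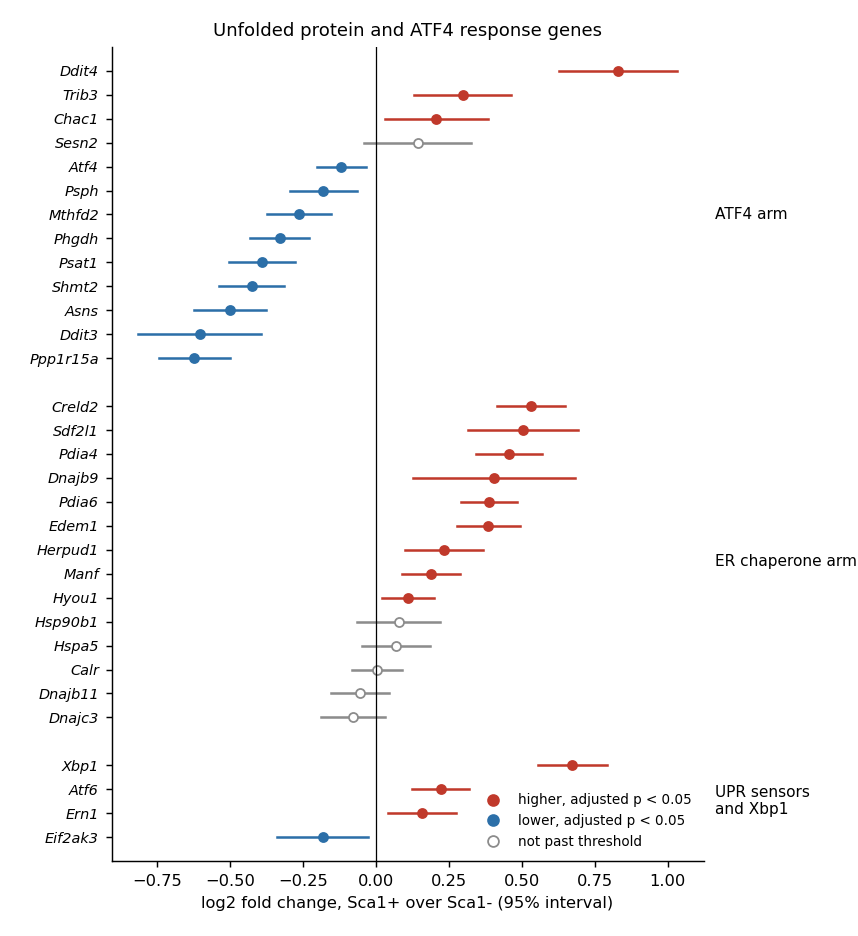
Log2 fold change of the 31 tested genes (x axis, 4T1-Sca1+ over 4T1-Sca1-, no unit), grouped by arm, with bars for the 95% interval and filled points for an adjusted p under 0.05. Most ATF4 arm genes lie left of 0 with Ddit4 at 0.83 on the far right, and no called chaperone arm gene lies left of 0.

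Xbp1 mRNA differed most among the sensors and their effector. Its normalized counts were 839, 897, 854 and 877 in the 4T1-Sca1+ libraries and 588, 518, 535 and 550.2 in the 4T1-Sca1- libraries. The groups did not overlap, and the log2 fold change was 0.67 ± 0.056 (SE, n = 4 and 4, edgeR adjusted p = 1.63e-08), or 1.59-fold. The total of spliced and unspliced Xbp1 mRNA is what these counts measure.

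Atf6, the sensor that is cut in the Golgi to become a transcription factor, had 1694, 1683, 1589 and 1727 normalized counts in 4T1-Sca1+ and 1516, 1432, 1406 and 1437 in 4T1-Sca1-. Here too each 4T1-Sca1+ library was above each 4T1-Sca1- library, with a log2 fold change of 0.22 ± 0.047 (edgeR adjusted p = 5.45e-04). Ern1, which encodes IRE1, had 854, 969, 903 and 862 against 786, 811, 795 and 856, so the lowest 4T1-Sca1+ library was below the highest 4T1-Sca1- library. Its log2 fold change was 0.16 ± 0.055 (edgeR adjusted p = 0.0208).

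Eif2ak3, the PERK gene that stands upstream of ATF4, went the other way. It had 254, 223, 228 and 241 normalized counts in 4T1-Sca1+ and 265, 285, 274 and 260.3 in 4T1-Sca1-, with no overlap. At a log2 fold change of -0.18 ± 0.074 it was just past the threshold (edgeR adjusted p = 0.0400). The call was lost in 10 of 18 alternative fits, among them those without 4T1-Sca1+ replicate 2 (-0.16), 3 (-0.17) or 4 (-0.19) and without 4T1-Sca1- replicate 2 (-0.16) or 3 (-0.18). That of Ern1 was lost with DESeq2 (0.14), without 4T1-Sca1+ replicate 2 (0.12), and without 4T1-Sca1- replicate 1 (0.13) or 3 (0.15).

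In the chaperone arm, the 3 genes with the highest level per length (Hspa5, Calr, Hsp90b1) did not pass the test, and all 9 called genes were below them in level. Hspa5 encodes BiP, the Hsp70 chaperone of the ER. It had 24657, 23907, 20024 and 23206 normalized counts in 4T1-Sca1+ and 22573, 21222, 22457 and 22049 in 4T1-Sca1-. The 4T1-Sca1+ libraries lay on both sides of the others, 3 above all of them and replicate 3 below. The log2 fold change was 0.07 ± 0.055, with a 95% interval from -0.05 to 0.18 (edgeR adjusted p = 0.290). Hsp90b1, the ER Hsp90 known as GRP94, had 16609, 16286 and 16543 in 3 of the 4T1-Sca1+ libraries and 12773 in replicate 3, against 14040.0 to 15366 in 4T1-Sca1-, and its log2 fold change was 0.08 ± 0.067 (adjusted p = 0.334). Without 4T1-Sca1+ replicate 3, both passed, at 0.13 for Hspa5 and 0.16 for Hsp90b1, and 11 of the 14 genes were then higher. Both also passed with GC-corrected offsets, at 0.12 and 0.16.

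Calr (calreticulin, which folds glycoproteins and binds calcium) lay between 13163 and 14266 in 4T1-Sca1+ and between 13895 and 14352 in 4T1-Sca1-, with a log2 fold change of 0.0037 ± 0.041 and an interval from -0.08 to 0.09. The sign of this value changed between fits. Dnajc3 (p58IPK, a co-chaperone that also inhibits eIF2 kinases) was at -0.08, with an interval from -0.19 to 0.03. Dnajb11 (ERdj3, a BiP co-chaperone) was at -0.06, with an interval from -0.16 to 0.04. The intervals of these 5 genes leave room for differences of at most 0.22 in either direction. Per transcript length, Hspa5 (FPKM 359 in 4T1-Sca1+ and 342 in 4T1-Sca1-), Calr (321 and 320) and Hsp90b1 (255 and 242) ranked 57th, 66th and 96th of the genes tested.

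Creld2, an ER-resident disulfide isomerase, had the highest fold change of the arm. Its normalized counts were 839, 768, 775 and 768 in 4T1-Sca1+ and 560, 564, 541 and 534 in 4T1-Sca1-. No library of one group reached the other, and the log2 fold change was 0.53 ± 0.055 (edgeR adjusted p = 2.34e-07). Sdf2l1, part of the BiP co-chaperone cycle, had 242, 253, 270.3 and 231 against 199.6, 176, 177 and 153. Its log2 fold change was 0.51 ± 0.090 (edgeR adjusted p = 1.01e-04), also without overlap.

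The protein disulfide isomerases Pdia4 and Pdia6, which form and reshuffle disulfide bonds, were higher at log2 fold changes of 0.45 ± 0.054 and 0.39 ± 0.045. Pdia4 ran from 2232 to 2588 normalized counts in 4T1-Sca1+ and from 1677 to 1845 in 4T1-Sca1-, and Pdia6 from 5878 to 6502 and from 4583 to 4885. Of the degradation genes, Edem1, which draws mannose-trimmed glycoproteins to degradation, was higher at 0.38 ± 0.052, and Herpud1, a scaffold of the ubiquitin ligase complex in the ER membrane, at 0.23 ± 0.064. The ranges were 1179 to 1295 against 898 to 999 for Edem1 and 524 to 589 against 433 to 499 for Herpud1. None of these 4 overlapped between the groups.

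Manf, a secreted ER stress factor, was higher at 0.19 ± 0.047, and Hyou1, an Hsp70-like nucleotide exchange factor for BiP, at 0.11 ± 0.043 (edgeR adjusted p = 0.0330). Dnajb9 (ERdj4, which returns BiP to IRE1) was higher at 0.41 ± 0.13 (edgeR adjusted p = 0.0130), but its 4T1-Sca1+ range of 102 to 141 met the 4T1-Sca1- range of 72.4 to 111. Its call was lost without 4T1-Sca1- replicate 3 (0.31). Hyou1 lost its call in 9 of 18 alternative fits, including those with GC-corrected offsets (0.06), those without 4T1-Sca1+ replicate 1 (0.10), 2 (0.11) or 4 (0.11) and without 4T1-Sca1- replicate 1 (0.10) or 3 (0.08).

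In the ATF4 arm, the enzymes of asparagine, serine and one-carbon metabolism formed the most uniform set. All 6 were lower in 4T1-Sca1+ cells, with log2 fold changes from -0.50 to -0.18 and a median of -0.36, and the groups did not overlap in any of them. Asns, which makes asparagine from aspartate and glutamine, had 1218, 1103, 1007 and 1103 normalized counts in 4T1-Sca1+ and 1571, 1539, 1701 and 1518 in 4T1-Sca1-. This was a log2 fold change of -0.50 ± 0.059 (edgeR adjusted p = 1.07e-06), the lowest of the 6.

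Phgdh, Psat1 and Psph catalyze the 3 steps that make serine from a glycolytic intermediate. Phgdh, the entry enzyme, was at -0.33 ± 0.049, with 1639 to 1825 normalized counts in 4T1-Sca1+ and 2089 to 2333 in 4T1-Sca1-. Psat1 was at -0.39 ± 0.054 (3862 to 4655 against 5350.2 to 5869), and Psph, the last step, at -0.18 ± 0.054 (633 to 707 against 755 to 779). The mitochondrial enzymes that pass the carbon of serine to folate followed in the same direction. Shmt2, which splits serine into glycine and a one-carbon unit, was at -0.43 ± 0.053 (5832 to 6554 against 7650 to 9097), and Mthfd2, which oxidizes that unit, at -0.27 ± 0.052 (1250 to 1459.5 against 1632.5 to 1689). Psph shares 452 exon bases with the counted gene Cct6a on the opposite strand, and since the use of strand in counting is not given in the sources used here, its value is uncertain to that extent.

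Atf4 encodes the factor for which the arm is named. It had 5413, 5207, 5374 and 5550.4 normalized counts in 4T1-Sca1+ and 5939, 5869, 5989 and 5807 in 4T1-Sca1-, without overlap. The log2 fold change was -0.12 ± 0.040 (edgeR adjusted p = 0.0169), and the call was lost without 4T1-Sca1+ replicate 2 (-0.10), without 4T1-Sca1- replicate 3 (-0.11), and under scaling to library totals (-0.08) or the upper quartile (-0.09). With GC-corrected offsets it was still called, at -0.24. At FPKM of 151 and 164, Atf4 mRNA ranked 205th of the genes tested.

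The stress regulators of the arm split. Ddit3 (CHOP, a transcription factor tied to cell death under prolonged stress) had 173, 211, 189 and 242 normalized counts in 4T1-Sca1+ and 291, 303, 358 and 301 in 4T1-Sca1-. It was lower without overlap, at -0.60 ± 0.10 (edgeR adjusted p = 5.02e-05). Ppp1r15a (GADD34, which directs the phosphatase that restores eIF2 activity) had 811, 777, 793 and 772 against 1253, 1336, 1209 and 1097. It was also lower, at -0.62 ± 0.058 (edgeR adjusted p = 6.38e-08), the lowest value of the 31 genes.

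Ddit4 (REDD1, an inhibitor of mTORC1 that also responds to hypoxia and glucocorticoids) was the gene with the highest fold change. Its normalized counts were 1512, 1526, 2081 and 1704 in 4T1-Sca1+ and 1116, 1029.8, 892 and 823 in 4T1-Sca1-. Each 4T1-Sca1+ library was above each 4T1-Sca1- library, at a log2 fold change of 0.83 ± 0.096 (edgeR adjusted p = 8.69e-07), or 1.78-fold. Trib3, a pseudokinase that restrains ATF4, was higher at 0.30 ± 0.079 (302 to 340.1 against 241 to 291), a call that was lost with GC-corrected offsets (0.11).

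Chac1, which degrades glutathione, was higher at 0.21 ± 0.084 (edgeR adjusted p = 0.0415), with overlapping ranges of 319 to 417 and 303 to 360.4. Its call was lost in 9 of 18 alternative fits, including those with DESeq2 (0.19) or GC-corrected offsets (0.04), those without 4T1-Sca1+ replicate 3 (0.14) or 4 (0.19) and without 4T1-Sca1- replicate 1 (0.18), 3 (0.18) or 4 (0.19). Sesn2, another inhibitor of mTORC1 that senses leucine, was at 0.14 ± 0.087 and did not pass (edgeR adjusted p = 0.165), and with GC-corrected offsets it was at -0.05.

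Immediate early genes can respond to handling during dissociation. Of 20 tested, 7 were higher and 9 lower, beside 31.3% and 30.2% of all genes tested, and the list summed to 50567 to 57541 normalized counts in 4T1-Sca1+ and 55279 to 65982 in 4T1-Sca1-, led by Ier3 at means of 7820.0 and 10861. Their part in the values of Ddit3, Ppp1r15a and Ddit4 was not tested.

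**Figure D2:**
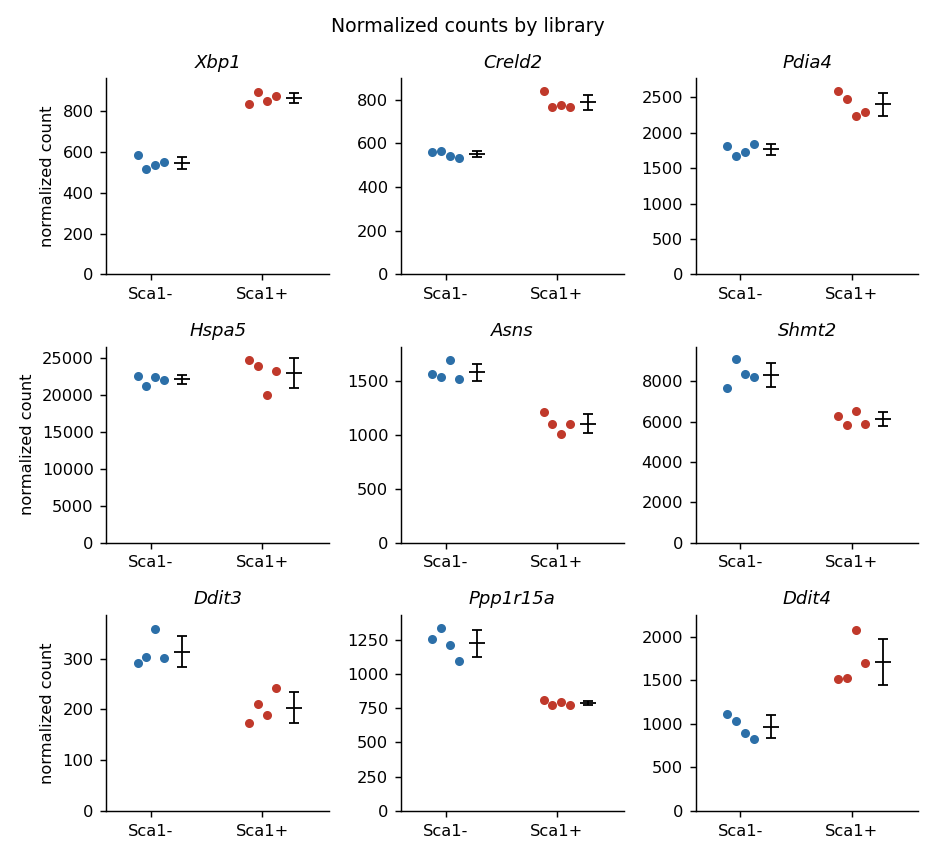
Normalized counts of 9 genes (y axis, counts divided by size factors, from 0) in the 4 libraries of each group, with mean and SD beside the points. Hspa5 overlaps between the groups, with 4T1-Sca1+ replicate 3 at 20024, and the other 8 genes do not overlap. The 9 genes are a selection from the 32. Over all genes tested, every 4T1-Sca1+ library lay above every 4T1-Sca1- library in 26.8%, and below in 27.9%.

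Taken as a mean over its genes, each arm kept the groups apart. The mean log2 CPM (counts scaled to library size) of the chaperone arm was 7.16 ± 0.036 (SD, n = 4) in 4T1-Sca1+, with libraries from 7.12 to 7.21, and 6.93 ± 0.039 in 4T1-Sca1-, with libraries from 6.90 to 6.99. That of the 13 tested ATF4 arm genes was 6.11 ± 0.016 in 4T1-Sca1+ (6.09 to 6.13) and 6.26 ± 0.051 in 4T1-Sca1- (6.19 to 6.31). The differences between groups were 0.23 and -0.15.

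The distance between the arms within a library was therefore wider in 4T1-Sca1+ cells. The chaperone mean minus the ATF4 mean was 1.101, 1.068, 0.995 and 1.021 in the 4T1-Sca1+ libraries and 0.7245, 0.592, 0.6246 and 0.721 in the 4T1-Sca1- libraries, a difference of 0.38 on the log2 scale between the group means. These values describe the listed genes and carry no test. Between the medians of the arms the difference was 0.47, and it lay between 0.43 and 0.53 when any 1 library was left out, the lowest being without 4T1-Sca1+ replicate 3.

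**Figure D3:**
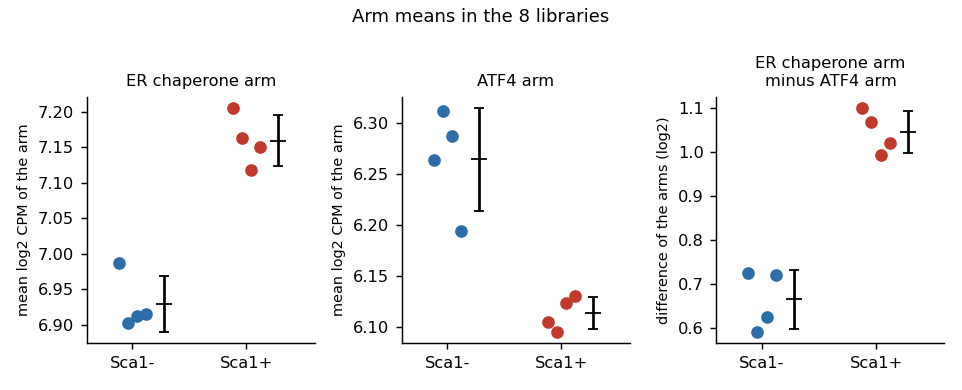
Mean log2 CPM of the chaperone arm, of the ATF4 arm, and the first minus the second (y axes, log2 scale, not from 0), in each of the 8 libraries, with mean and SD beside the points. The chaperone arm is higher by 0.23 and the ATF4 arm lower by 0.15 in 4T1-Sca1+ cells, and the groups do not overlap in any panel.

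The genes with an ERSE in the printed windows did not move as 1 set. Creld2 (0.53) and Pdia6 (0.39) were higher, while Hspa5 (0.07), Hsp90b1 (0.08), Calr (0.0037) and Dnajc3 (-0.08) did not pass the test. Among all genes tested that had a promoter, 15 held an ERSE, of which 5 were higher (33.3%) and 1 lower (6.67%). Their median log2 fold change was 0.09. Of tested genes without an ERSE, 31% were higher and 30.4% lower, with a median of 0.0064. The 15 include the 6 chaperone arm genes named here. Herpud1, with both an ERSE-II and a CARE, was higher (0.23), and Dnajb11, with an ERSE-II, was at -0.06.

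The CARE holders of the ATF4 arm also went in both directions. Asns was lower (-0.50), and Trib3 (0.30) and Chac1 (0.21) were higher. Of 239 tested genes with a CARE, 78 were higher (32.6%) and 70 lower (29.3%), shares close to those of tested genes without it (31.0% and 30.4%), with a median of 0.02. The 311 with the UPR element had 82 higher (26.4%) and 114 lower (36.7%), against 31.2% and 30.2% without it, and a median of -0.05.

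On the ATF4 side, the wider gene lists had medians of either sign. Their counts stand beside 31.3% of all genes tested called higher and 30.2% called lower. Of 20 cytosolic aminoacyl-tRNA synthetases, which charge tRNAs and many of which are known ATF4 targets, 15 were lower, 1 was higher and 4 did not pass, with a median log2 fold change of -0.28. The lowest were Iars (-0.70) and Lars (-0.54), and the highest were Vars (0.16, called) and Aars (-0.01, not called). Of 10 amino acid transporters tested, 7 were higher and 1 was lower, with a median of 0.31. The cystine transporter Slc7a11 was at 2.51 ± 0.060, from a mean of 311 normalized counts to 1755, and the glycine transporter Slc6a9 at 1.39. Slc7a1 was the lowest at -0.11, followed by Slc7a5 at -0.04, which did not pass.

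Among other enzymes of amino acid and one-carbon metabolism, 5 of 12 tested were higher and 4 lower. Over all genes tested, the shares were 31.3% and 30.2%. The median of these enzymes was 0.05. Gpt2 (0.57) and Pycr1 (0.48) were highest, and Aldh1l2 (-0.46, not called) was lowest. Of 9 tested partners and stress-induced factors, 5 were higher and 2 lower, with a median of 0.38. They ran from Atf3 at -2.42 ± 0.067, from a mean of 1549 normalized counts to 286, and Nupr1 at -0.17, to Vegfa at 0.91 and Cebpb, a dimer partner of ATF4, at 1.13. A list of 13 genes held eIF2 kinases, eIF2, its phosphatase and its exchange factor, which stand upstream of Atf4, and also Eif2a, which encodes the separate initiation factor eIF2A. Of these, 8 were lower and 1 higher, with a median of -0.24. Eif2s3x (-0.88) and Eif2a (-0.49) were lowest, and Ppp1r15b (0.13, called) and Eif2ak4 (0.05, not called) highest.

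On the ER side, 27 other ER folding enzymes and co-chaperones had 7 higher and 8 lower, with a median of -0.02, and both counts were close to the shares over all genes tested (31.3% and 30.2%). They ran from Cdnf (-0.93, at means of 7.14 and 13.8 normalized counts) and Ppib (-0.38) to Fkbp7 (0.74) and Creld1 (0.81). Of 19 genes of ER-associated degradation tested, 2 were higher and 5 lower, with a median of -0.02 and ends at Rnf139 (-0.58), Faf2 (-0.45), Edem2 (0.35) and Rnf5 (0.41).

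The translocon, signal recognition particle and signal peptidase genes, which bring new proteins into the ER, had 0 higher and 12 lower of 22, with a median of -0.20. Srp72 (-0.55) and Srprb (-0.43) were lowest, and Srpr (0.09) and Srp14 (0.04) were highest without passing. Of 12 other transducers and processing factors tested, 5 were higher and 3 lower, with a median of 0.06. Crebrf (0.77) and Wfs1 (0.65) were highest, and Creb3 (-0.67) and Bak1 (-0.50) lowest. Over all genes tested, 31.3% were higher and 30.2% lower.

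**Figure D4:**
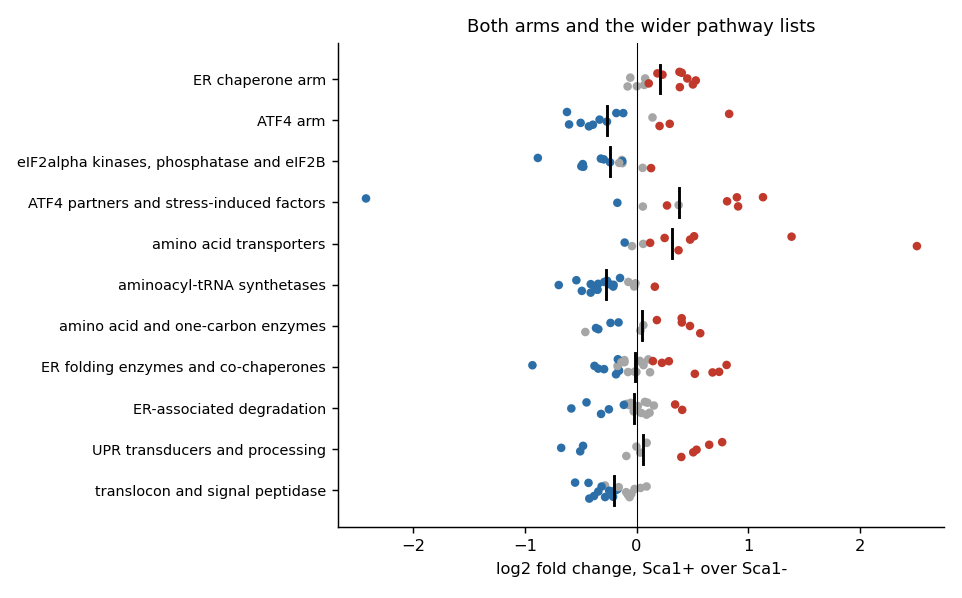
Log2 fold change (x axis, 4T1-Sca1+ over 4T1-Sca1-, no unit) of each tested gene of both arms and of 9 wider lists, with red points called higher, blue points called lower, grey points not called and a black bar at each list's median. Medians range from -0.28 for the aminoacyl-tRNA synthetases to 0.38 for the ATF4 partners, with Slc7a11 at 2.51 and Atf3 at -2.42 as the extremes.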

How the data were processed

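Total RNA from 4 4T1-Sca1+ and 4 4T1-Sca1- samples was sequenced after TruSeq library preparation. The submitters' processing notes name cutadapt 1.16, STAR 2.5.3a and GRCm38, and the counting tool, annotation and use of strand are not given in the sources used here. The authors deposited raw counts per Ensembl gene for 16341 genes. They also deposited a normalized signal table for 15372 genes, which equalled the counts divided by DESeq2 size factors to a relative difference of 2.22e-16 and left out 969 genes with a single count.

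Symbols and positions came from GENCODE M21 on GRCm38, which matched 16202 genes by identifier. The 32 genes and all gene lists were chosen with earlier results of these data known. Named genes were all 32, the 2 highest and 2 lowest tested genes of each wider list, and the most abundant and the near-zero markers, except 1 gene of a wider list that is not reported here. Values in every library are given for sensors and for genes whose log2 fold change was 0.5 or more in size, and for Hspa5, Hsp90b1 and Atf4 after their values were seen.

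Counts were tested with edgeR 4.0.16 in R 4.3.3 (filterByExpr, TMM, two-sided quasi-likelihood test, no covariate), which kept 11717 genes. P-values were adjusted by Benjamini-Hochberg over these genes. The standard error was the absolute log2 fold change divided by the square root of F. Printed normalized counts are counts divided by DESeq2 size factors, and FPKM used merged exon length. For arm means, log2 CPM took a prior count of 2.

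Scaling was varied (DESeq2 size factors, library totals alone, upper quartile, GC-corrected offsets), as were the filter (none, or a minimum of 10 counts per library), the tool (DESeq2 1.42.0, limma-voom from limma 3.58.1, and limma on the deposited signal as log2 of the value plus 1), a replicate block, the threshold (adjusted p of 0.01, or 2-fold) and the libraries, each left out in turn. The edgeR, limma-voom and DESeq2 fits were also run on simulated counts in which 200 genes were changed by known folds. So few changed genes cannot test the scaling in data where 31.3% of genes are called higher and 30.2% lower.

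No 2 libraries of a group agreed within sampling noise (chi-square per degree of freedom 1.92 to 10.1). Psph, Hsp90b1, Ddit3, Manf, Pdia6 and Ppp1r15a share exon bases with another counted gene, so their counts are uncertain to that extent.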

Additional observations from a re-analysis of the deposited data

Results flagged for a closer look

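Of 70 groups of 4 libraries examined for a library that stood apart by Dixon's ratio, 6 had 1, where chance gives 3.5 at 1 in 20. In the 4T1-Sca1+ group, replicate 3 was low for Hsp90b1 (12770.0 normalized counts, others 16290.0 to 16610.0) and for Calr (13160.0, others 14200.0 to 14270.0). Replicate 1 was high for Creld2 (839, others 767.5 to 775) and for Hyou1 (5811, others 5646 to 5669). In the 4T1-Sca1- group, replicate 2 was high for Chac1 (360.4, others 302.8 to 309.3), and replicate 1 was high for the mean log2 CPM of the chaperone arm (6.988, others 6.903 to 6.915). Over all genes, 4T1-Sca1+ replicate 3 was also the library farthest from its group by chi-square per degree of freedom (7.02 to 10.1 against the other 3).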

How the results depend on the processing

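The chaperone arm had 7 to 11 genes higher and 0 lower in all 18 alternative fits, and the ATF4 arm 8 or 9 lower. Scaling to library totals alone gave medians of 0.2528 for the chaperone arm, -0.2221 for the ATF4 arm and 0.2319 for the sensors with Xbp1, and upper-quartile scaling gave 0.2182 for the last. Eif2ak3 lost its call, leaving 0 sensors lower, under both of these, with at least 10 counts in every library, with DESeq2, with the replicate block and at an adjusted p under 0.01. GC-corrected offsets left 1 ATF4 arm gene higher (Ddit4), with Trib3 at 0.11 and Chac1 at 0.04, gave a chaperone median of 0.1674 and called Hspa5 (0.12) and Hsp90b1 (0.16) higher; the cause was not tested. With a 2-fold minimum (log2 fold change of 1 in size), 612 genes were higher and 103 lower, with 0 in either direction in the 3 sets. Leaving out 1 library gave an ATF4 median of -0.2982 to -0.2272 and 0 to 1 sensors lower. Calr and Sesn2 changed sign without passing the test in any fit. Calr was at -0.0043 with DESeq2 size factors, -0.0096 with no filter, -0.0092 with DESeq2, -0.0100 in the deposited table, -0.00083 with GC-corrected offsets and -0.0106 to 0.0290 when 1 library was left out. Sesn2 was at -0.0541 with GC-corrected offsets.

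Same-numbered libraries showed no common deviation from their group means (correlations of 0.0957, -0.15, -0.0339 and -0.00107). With 4 libraries per group, these values cannot exclude a shared sort or culture. With the replicate block, 3605 genes were higher and 3452 lower, 8 chaperone arm genes were higher, and the ATF4 arm had 3 higher and 9 lower. Vldlr, with at most 3 counts in a library, was too low to be tested in the main fit.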
